A study of Mus musculus with 9 samples.

Results

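The genes described here are 10 markers of luminal progenitors of the mouse mammary gland, Elf5, Kit, Cd14, Tspan8, Folr1, Wfdc18, Trf, Lcn2, Plet1 and Basp1. They were taken as a fixed list of symbols from the deposited count table, which holds 54456 gene names, and all 10 were present and passed the filter on low counts. Their levels were followed in aggregates of flow-sorted wild-type (WT) mammary epithelial cells embedded in 80% Matrigel beside heparin sulfate beads soaked in FGF10 at 100 µg/mL, the growth factor they migrate towards. Mixed aggregates were a 50% mixture of basal and luminal cells (labelled Balu), luminal aggregates held luminal cells only (Lu), and basal aggregates held basal cells only (Ba), with 3 libraries of each kind. Migration lasted 56 h by the treatment label and 55 h by the titles. The stated aim is the role of both cell kinds in collective migration. All 3 kinds had the FGF10 bead, so a response to FGF10 cannot be told apart from the other differences between the groups. The labels give neither the age of the mice nor the origin of replicate libraries (separate animals, separate cultures or neither), so p-values measure only the spread between these libraries, which may be technical.

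Mammary luminal cells line the duct and fall into hormone-sensing cells and progenitors that can give rise to the milk-producing alveolar cells, while basal cells form the contractile layer around them. Luminal progenitors are known for the ETS-family transcription factor Elf5, which drives alveolar differentiation, and for the receptor tyrosine kinase Kit. The other genes of the list encode surface proteins (Cd14, Tspan8, Folr1, Plet1), secreted proteins (Wfdc18, Lcn2, Trf) and a membrane-bound cytoplasmic protein (Basp1). Several of them are also made elsewhere, Cd14 in macrophages, Lcn2 in neutrophils and Kit in mast cells.

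Library totals ran from 15585324 to 19164405 counts, and 3 counts corresponded to 0.152 to 0.187 CPM, a limit that covers counting error only. CPM is the share of a library's counts, scaled by TMM (edgeR's trimmed mean of M) and set to a common total. The basal keratin gene Krt5 stood at 1084 to 1157 CPM in mixed, 12.996 to 23.2 CPM in luminal and 1630 to 2109 CPM in basal libraries. The luminal keratin gene Krt18 stood at 1321 to 1637, 2133 to 3722 and 726 to 848 CPM in the same groups, so the labels go with Krt5 and Krt18. Keratin genes separated the pure groups unequally. The log2 difference for luminal minus basal was -6.70 for Krt5, -3.73 for Krt17 and -1.10 for Krt14. It was 2.26 for Krt7, 1.88 for Krt18, 0.75 for Krt8 and 0.64 for Krt19. Krt14 still stood at 1285 to 2554 CPM in luminal libraries. Krt19 was highest in mixed aggregates, with means of 4537 CPM in mixed, 1336 CPM in luminal and 856 CPM in basal. The prefixes of the column names form 3 series of library codes, which are called code series here. Series A holds all mixed libraries and basal 2, series B holds luminal 1, basal 1 and basal 3, and series C holds luminal 2 and luminal 3. Adding this series as a term therefore sets mixed against basal 2 alone and luminal 1 alone against basal 1 and 3, and mixed is linked to luminal only through basal. Basal 2 stood apart from its group: the chi-square of counts over genes was 93.1 and 62.3 per degree of freedom against basal 1 and 3, and 10.6 between those 2. Within mixed it was 15.7 to 33.4 and within luminal 34.6 to 50.9. Values without basal 2 are given where it changes the call of a marker or of a named gene tested under each alternative.

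Of the 10 markers, 9 were higher in luminal than in basal aggregates and the same number were higher in mixed than in basal aggregates. Trf was the exception in each case. Against luminal aggregates, mixed aggregates had higher Kit and Wfdc18, lower Cd14, Folr1 and Lcn2, and no called difference in Elf5, Plet1, Basp1, Tspan8 or Trf. Called means an adjusted p under 0.05 in edgeR's quasi-likelihood test over all 18051 tested genes. Among all tested genes 27.1% were called for luminal minus basal (12.8% higher, 14.4% lower), 13.7% for mixed minus basal (6.39% higher, 7.33% lower) and 29.4% for mixed minus luminal (15.2% higher, 14.2% lower). The libraries of the groups did not overlap for 9 markers in luminal against basal, 9 in mixed against basal and 7 in mixed against luminal, where 46.6%, 33.1% and 51.1% of all tested genes did not. With the code series as a term 9, 7 and 3 markers were called in these comparisons, where 13.9%, 4.73% and 2.72% of all tested genes were. The median log2 difference of the 10 markers was 2.41 for luminal minus basal and 2.43 for mixed minus basal, beside -0.02 and -0.07 over all tested genes, and it was -0.38 for mixed minus luminal, beside -0.05. The comparisons of mixed and of luminal with basal aggregates share the basal libraries, so their values are set side by side and not as separate evidence. In bulk RNA, fewer cells of a type and less RNA per cell cannot be told apart.

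**Figure D1:**
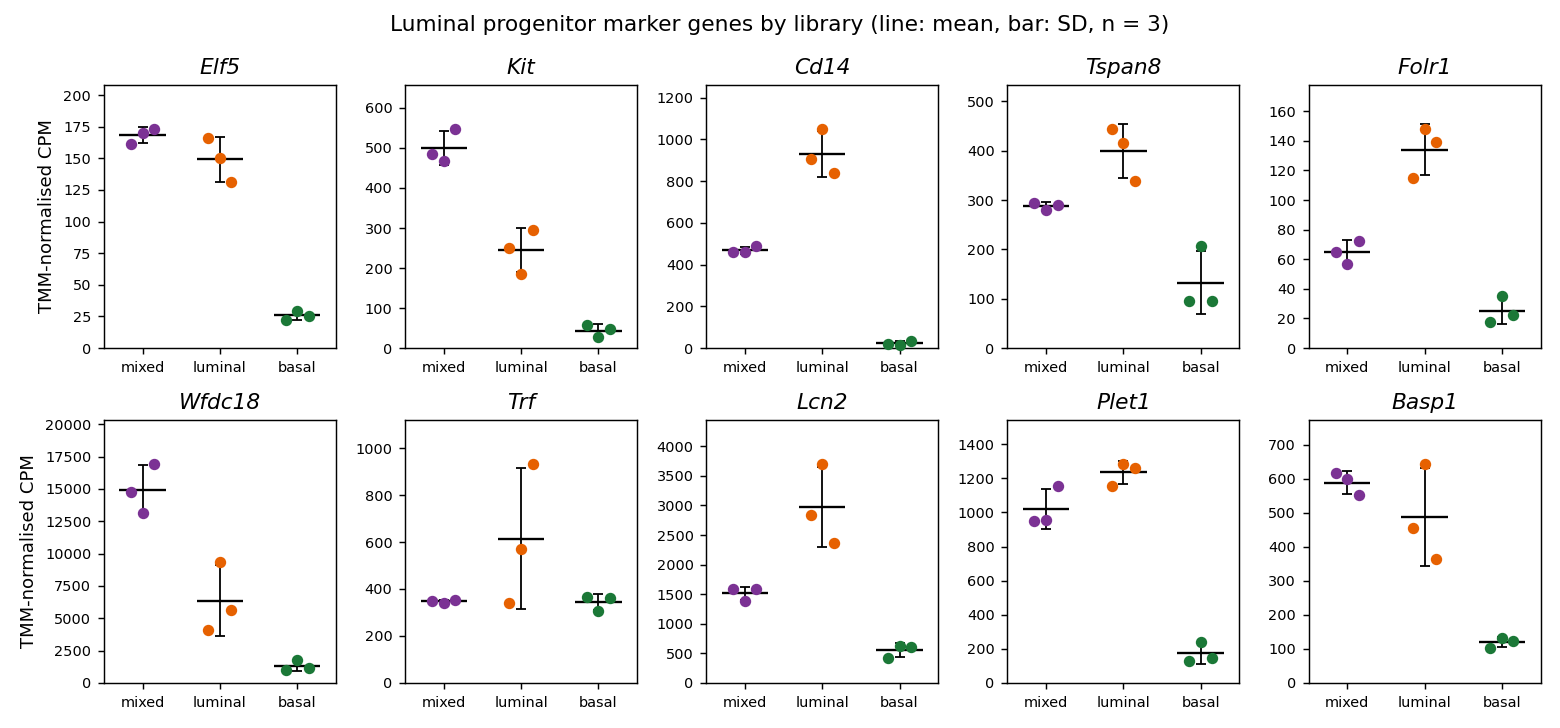
TMM-normalised CPM of the 10 luminal progenitor marker genes in mixed, luminal and basal aggregates (points are libraries in the order of their numbers, horizontal lines are means and bars are SD, n = 3 each, each panel with its own linear axis). Kit and Wfdc18 are highest in mixed libraries, Cd14, Folr1 and Lcn2 are highest in luminal libraries, and the 3 groups overlap for Trf.

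Elf5, the transcription factor of the list, lies on chromosome 2 (mm39, 103242033 to 103281334, plus strand). It stood at 161, 170.3 and 173 CPM in mixed 1, 2 and 3, at 166, 150.3 and 131 CPM in luminal 1, 2 and 3, and at 22.6, 29.7 and 25.3 CPM in basal 1, 2 and 3. Mixed and luminal libraries overlapped, and all of them lay above every basal library. The log2 difference was 2.70 ± 0.17 for mixed minus basal (SE, adjusted p = 6.92e-06) and 2.53 ± 0.17 for luminal minus basal (adjusted p = 1.18e-06). Mixed minus luminal was 0.17 ± 0.16 (adjusted p = 0.44), and with the code series as a term it was -0.29, also without a call. Mixed aggregates, set up with 50% luminal cells, held Elf5 at 1.13 times the luminal mean.

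Kit, the receptor for stem cell factor (chromosome 5, 75735576 to 75817382, plus strand), was the surface marker whose mixed libraries all exceeded the pure groups. It stood at 485, 467 and 548 CPM in mixed, at 251, 186 and 296 CPM in luminal and at 57.4, 26.5 and 46.6 CPM in basal 1, 2 and 3. No library of a group overlapped with another group, and basal 2 was the lowest of all. On the log2 scale the difference was 3.52 ± 0.29 for mixed minus basal (adjusted p = 3.5e-05) and 2.49 ± 0.28 for luminal minus basal (adjusted p = 4.41e-05). For mixed minus luminal it was 1.03 ± 0.26 (adjusted p = 0.0145). That call was kept with the code series as a term (1.97, adjusted p = 0.0367), but without luminal 2, the library with the lowest luminal value, the difference was 0.86 and did not pass (adjusted p = 0.0523). The ligand gene of Kit, Kitl, named after its values were seen, did not pass in any comparison with TMM scaling and the filter on low counts in the quasi-likelihood test. Kitl stood at 97.0 to 139.8 CPM in mixed, 89.1 to 104 CPM in luminal and 116 to 203 CPM in basal libraries. For luminal minus basal, Kitl was -0.62 ± 0.23 (adjusted p = 0.0738), and it passed with DESeq2 (-0.60, adjusted p = 0.0436), with scaling by library size alone (-0.72, adjusted p = 0.0207) and without the filter on low counts (-0.58, adjusted p = 0.0388).

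Cd14, the co-receptor of Tlr4 for bacterial lipopolysaccharide (chromosome 18), showed the widest separation between pure groups. It stood at 459, 459 and 489 CPM in mixed, at 905, 1051 and 837 CPM in luminal and at 19.5, 16.0 and 33.5 CPM in basal 1, 2 and 3. The mixed libraries lay between the pure groups without overlap and varied little among themselves. The luminal mean was 40.5 times the basal mean and the mixed mean 20.4 times. The log2 difference was 4.35 ± 0.28 for mixed minus basal (adjusted p = 6.92e-06), 5.34 ± 0.29 for luminal minus basal (adjusted p = 2.98e-07) and -0.99 ± 0.24 for mixed minus luminal (adjusted p = 0.012). With the code series as a term, mixed minus luminal was -0.22 and did not pass (adjusted p = 0.925).

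Folr1, the folate receptor alpha (chromosome 7, 101507538 to 101519995, minus strand), followed the same order of groups. It stood at 64.8, 56.5 and 72.6 CPM in mixed, at 115, 148 and 139 CPM in luminal and at 17.8, 35.4 and 22.6 CPM in basal 1, 2 and 3. The groups did not overlap. On the log2 scale the difference was 1.36 ± 0.24 for mixed minus basal (adjusted p = 0.00445), 2.41 ± 0.25 for luminal minus basal (adjusted p = 2.42e-05) and -1.05 ± 0.24 for mixed minus luminal (adjusted p = 0.00818). Within series A, against basal 2 alone, mixed minus basal was 0.87 and did not pass (adjusted p = 0.0791), while mixed minus luminal in that fit was -1.64 (adjusted p = 0.0287).

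Tspan8, a tetraspanin of the cell surface (chromosome 10, 115652737 to 115685798, plus strand), separated the groups less. It stood at 294, 279.6 and 290.3 CPM in mixed, at 444, 417 and 338 CPM in luminal and at 96.3, 207 and 95.4 CPM in basal 1, 2 and 3. Basal 2 had more than the other basal libraries, and no group overlapped with another. Luminal minus basal was 1.59 ± 0.28 on the log2 scale (adjusted p = 0.00124) and mixed minus luminal was -0.47 ± 0.27 (adjusted p = 0.209). Mixed minus basal was 1.12 ± 0.28 (adjusted p = 0.0219), and this call ended with the code series as a term (0.48, adjusted p = 0.204). It also ended without mixed 1, 2 or 3, where the difference was 1.09, 1.12 and 1.10 (adjusted p = 0.0592, 0.0551 and 0.0585), and without basal 1 or 3, where it was 0.95 and 0.92 (adjusted p = 0.0646 and 0.101). Mixed minus luminal passed without basal 2, at -0.48 (adjusted p = 0.0152), and with the code series as a term, at -1.74 (adjusted p = 0.00882).

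Plet1, a lipid-anchored surface protein (chromosome 9, 50405825 to 50416782, plus strand), was close to Elf5 in its pattern. It stood at 948, 954 and 1154 CPM in mixed, at 1157, 1287 and 1261 CPM in luminal and at 131, 241 and 146 CPM in basal 1, 2 and 3. The highest mixed library lay just under the lowest luminal library, and both groups lay far above basal. The log2 difference was 2.56 ± 0.24 for mixed minus basal (adjusted p = 7.91e-05), 2.84 ± 0.24 for luminal minus basal (adjusted p = 5.87e-06) and -0.28 ± 0.22 for mixed minus luminal (adjusted p = 0.373). Of the exon bases of Plet1, 13.4% are shared with the antisense gene Plet1os, and reads were counted without strand, so its level is uncertain by an unknown part.

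Wfdc18, a small secreted protein of the whey acidic protein domain family (chromosome 11, 83599841 to 83602174, plus strand), took the largest share of counts among the 10. It stood at 14734, 13153 and 16965 CPM in mixed, at 4066, 9361 and 5673 CPM in luminal and at 1017, 1764 and 1179 CPM in basal 1, 2 and 3. The groups did not overlap, but the luminal libraries lay far apart, with luminal 2 highest and luminal 1 lowest. This gene took 1.305% to 1.63% of all counts of a mixed library, 0.402% to 0.882% of a luminal library and 0.117% to 0.168% of a basal library. On the log2 scale the difference was 3.50 ± 0.33 for mixed minus basal (adjusted p = 8.52e-05), 2.27 ± 0.31 for luminal minus basal (adjusted p = 0.000232) and 1.23 ± 0.31 for mixed minus luminal (adjusted p = 0.0126). The last of these did not pass without luminal 3 (1.15, adjusted p = 0.0514) or with the code series as a term (1.19, adjusted p = 0.249). Wfdc17, the neighbouring family member on the same strand (83594817 to 83597094), stood at 45.6 to 65.9 CPM in mixed, 37.5 to 43.9 CPM in luminal and 0.507 to 2.48 CPM in basal libraries. Reads that align to several places were not counted, so reads that fit both genes may be missing from each.

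Lcn2, a secreted lipocalin that binds bacterial iron carriers (chromosome 2, 32274645 to 32278264, minus strand), stood at 1582, 1392 and 1583 CPM in mixed, at 2834, 3708 and 2369.6 CPM in luminal and at 428, 632 and 610.1 CPM in basal 1, 2 and 3. The mixed libraries lay between the pure groups, and no group overlapped with another. The log2 difference was 1.45 ± 0.22 for mixed minus basal (adjusted p = 0.00152), 2.42 ± 0.22 for luminal minus basal (adjusted p = 1.08e-05) and -0.97 ± 0.21 for mixed minus luminal (adjusted p = 0.00741). The difference between mixed and luminal did not pass with the code series as a term (-1.18, adjusted p = 0.218).

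Trf, the iron carrier transferrin (chromosome 9, 103081200 to 103107643, minus strand), did not pass in any comparison. It stood at 347, 340.3 and 354 CPM in mixed, at 340.2, 570.5 and 935 CPM in luminal and at 367, 306 and 363 CPM in basal 1, 2 and 3. Luminal 1 lay within the basal range and at the low edge of the mixed one, and luminal 3 stood far above both. On the log2 scale the difference was 0.01 ± 0.29 for mixed minus basal (adjusted p = 0.989), 0.83 ± 0.29 for luminal minus basal (adjusted p = 0.0512) and -0.83 ± 0.29 for mixed minus luminal (adjusted p = 0.0501). Without luminal 1, luminal minus basal was 1.13 (adjusted p = 0.00455) and mixed minus luminal was -1.12 (adjusted p = 0.00806), and without basal 2 mixed minus luminal was -0.83 (adjusted p = 0.0402). DESeq2 called both differences (adjusted p = 0.0163 and 0.0125), so Trf lies at the threshold. Within series B, luminal 1 against basal 1 and 3, the difference was -0.10 (adjusted p = 0.9), and mixed minus luminal in that fit was 0.28 (adjusted p = 0.869).

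Basp1, a membrane-bound protein known from nerve growth cones (chromosome 15, 25363363 to 25413850, minus strand), stood at 616, 598 and 551 CPM in mixed, at 454, 644 and 363 CPM in luminal and at 103, 132 and 124 CPM in basal 1, 2 and 3. Luminal 2 exceeded every mixed library, and basal libraries were far below both groups. The log2 difference was 2.30 ± 0.22 for mixed minus basal (adjusted p = 9.15e-05), 2.03 ± 0.22 for luminal minus basal (adjusted p = 3.33e-05) and 0.27 ± 0.21 for mixed minus luminal (adjusted p = 0.35).

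**Figure D2:**
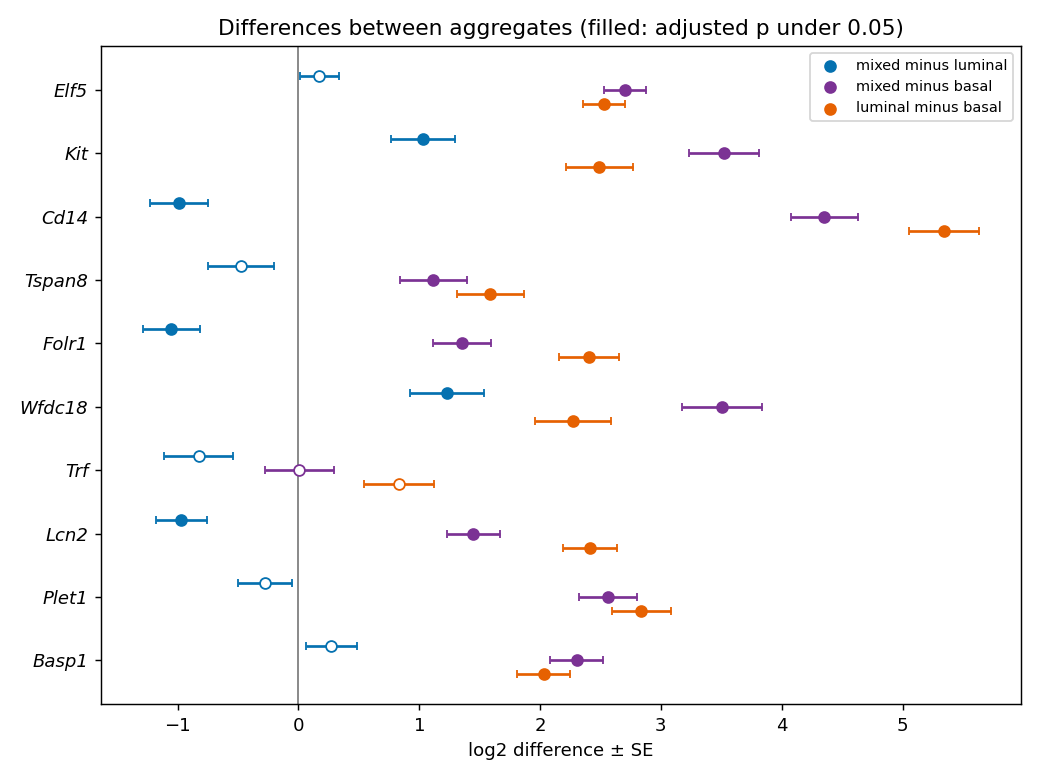
Log2 differences with their SE for mixed minus luminal, mixed minus basal and luminal minus basal aggregates, 1 line per gene (3 libraries per group, filled points passed an adjusted p of 0.05). Luminal minus basal and mixed minus basal are positive and called for 9 genes, and mixed minus luminal lies to both sides of 0, from -1.05 for Folr1 to 1.23 for Wfdc18.

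Levels of different genes can be compared only per length, as CPM per kilobase of exon. The length is the sum of all exon bases of a gene name and not that of the expressed transcript. The ranks carry that uncertainty, which the SD between libraries does not cover. On that scale Wfdc18 was highest in each group, at 12255 ± 1570 in mixed, 5219 ± 2225 in luminal and 1082 ± 322 in basal aggregates (SD, n = 3 each), followed by Lcn2 at 579 ± 41.9, 1133 ± 259 and 212 ± 42.6. In mixed aggregates Plet1 (523 ± 60.0) came next and did not differ from Lcn2 beyond the spread, then Basp1 (293 ± 16.7) and Cd14 (271 ± 10.0), whose spreads touch, then Tspan8 (169 ± 4.41), Trf (105 ± 2.04) and Kit (56.1 ± 4.78). Elf5 (28.6 ± 1.10) and Folr1 (28.1 ± 3.51) were lowest in mixed aggregates and were not apart. In luminal aggregates Plet1 (634 ± 35.4) and Cd14 (538 ± 63.2) stood after Lcn2, then Basp1 (243 ± 71.4), Tspan8 (235 ± 32.3) and Trf (185 ± 90.3), whose spreads overlap, then Folr1 (58.3 ± 7.50), with Kit (27.4 ± 6.20) and Elf5 (25.4 ± 2.98) lowest. In basal aggregates Trf (104 ± 10.2), Plet1 (88.6 ± 30.9), Tspan8 (78.1 ± 37.6) and Basp1 (59.4 ± 7.50) followed Lcn2, and Cd14 (13.3 ± 5.34), Folr1 (10.998 ± 3.98), Kit (4.88 ± 1.76) and Elf5 (4.40 ± 0.61) were at the low end. By group mean Trf thus ranked 3 of 10 in basal aggregates but 7 of 10 in mixed and in luminal aggregates. In basal aggregates the spread of Trf overlapped those of Plet1 and Tspan8. In basal 2 Trf (92.1) lay under Plet1 (124) and Tspan8 (122), and in luminal 3 Trf (282) lay above Tspan8 (199) and Basp1 (181). Together the 10 markers took 1.77% to 2.12% of all counts in mixed, 1.06% to 1.65% in luminal and 0.259% to 0.322% in basal libraries.

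The mixed libraries were then placed between the pure groups on the linear CPM scale, with the luminal mean at 0% and the basal mean at 100%. This was done for the 9 genes that differ by at least 1 on the log2 scale between luminal and basal aggregates, which leaves out Trf. The position was -170% ± 37.9 for Wfdc18 and -127% ± 21.2 for Kit (SD over 3 mixed libraries), so each mixed library held more of both transcripts than the luminal mean. Basp1 at -27.4% ± 9.10 and Elf5 at -15.5% ± 5.25 lay slightly past the luminal mean, and Plet1 at 20.3% ± 10.99 lay between it and the midpoint. Tspan8 at 41.9% ± 2.81, Cd14 at 50.9% ± 1.91, Lcn2 at 60.1% ± 4.55 and Folr1 at 63.8% ± 7.42 lay near the midpoint. The median over the 9 genes was 20.3% ± 10.99. This was the value of Plet1 in each mixed library, with 4 genes under 0% and none of the others under 41.9%. For comparison the median was 59.2% ± 3.77 for the 10 of 16 pan-luminal markers that pass the same limit of 1. Under that limit it was 59.0% ± 7.28 for 6 other progenitor and alveolar genes, with 2 of them under 0%. For 16 partners and relatives of the markers it was 51.9% ± 8.96. For 6 hormone-sensing genes it was -1.28% ± 16.2, with 4 of them under 0%. It was 66.9% ± 3.52 for the 1471 called genes with at least 2-fold higher levels in luminal than in basal aggregates. Krt19 was among the pan-luminal markers left out, at 4537 ± 512 CPM in mixed and 1336 ± 285 CPM in luminal aggregates. Its mixed minus luminal difference was 1.76 ± 0.19 (adjusted p = 8.87e-05). Of the 16 pan-luminal markers 1 rose and 6 fell in that comparison, and with the code series as a term 1 rose and 0 fell. Of those 1471 genes 11.8% had a mean position under 0%, as did 4 of the 9 markers. These shares are descriptions without a test.

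**Figure D3:**
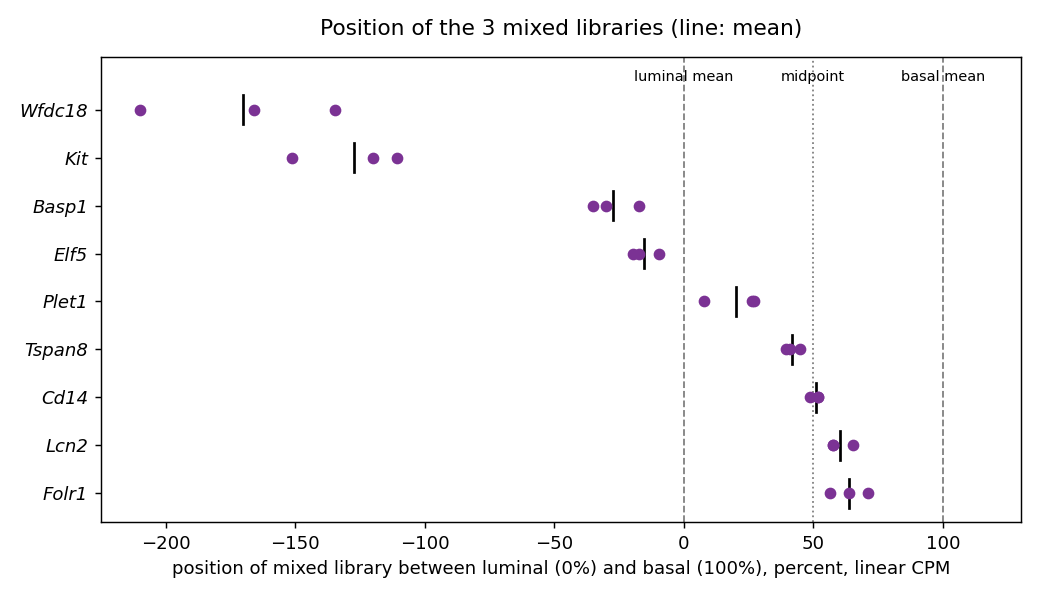
Position of each mixed library between the luminal mean (0%) and the basal mean (100%) for 9 marker genes, in percent of the difference in linear CPM (points are the 3 mixed libraries, black lines their mean). Wfdc18 and Kit lie left of the luminal mean at -170% and -127%, and Tspan8, Cd14, Lcn2 and Folr1 lie between 41.9% and 63.8%.

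A gene was called outside both pure groups when mixed minus basal and mixed minus luminal had the same sign and the larger of the 2 p-values passed after adjustment over all genes. No marker was called in edgeR's quasi-likelihood test with TMM scaling and the filter on low counts. In that fit 16 of 18051 genes (0.0886%) were called, 0.0499% above and 0.0388% below both groups. The nearest were Wfdc18 (unadjusted p = 0.00181, adjusted p = 0.166) and Kit (unadjusted p = 0.00227, adjusted p = 0.17), and these 2 were the markers under an unadjusted 0.05. DESeq2 called these 2 (adjusted p = 0.00431 and 0.02) among 622 genes, and limma-voom called no marker (adjusted p = 0.115 and 0.119). Without basal 2 both also passed in the quasi-likelihood test, Kit at an adjusted p of 0.0135 and Wfdc18 at 0.0232, in a fit that called 1251 genes. Without the filter on low counts both passed in that test as well (Kit adjusted p = 0.000377, Wfdc18 adjusted p = 1.04e-05). That unfiltered fit called 890 genes.

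Promoter windows of markers called between mixed and luminal aggregates are shown because these genes moved in opposite directions there. Windows of 250 bases before to 50 bases after the transcription start came from RefSeq on GRCm38.p6, a different build from the mm39 coordinates above. They were held for 7 of the 10 markers, 9 windows in all, with none for Cd14, Folr1 and Trf. Capitals mark matches on either strand to the ETS-type motif AGGAAG (its other strand reads CTTCCT) and to TATAAA. The windows are chr5:75574737-75575036 on the plus strand for Kit, chr11:83708754-83709053 on the plus strand for Wfdc18 and chr2:32387690-32387989 on the minus strand for Lcn2, each printed 5′ to 3′ in the direction of transcription.
Kit: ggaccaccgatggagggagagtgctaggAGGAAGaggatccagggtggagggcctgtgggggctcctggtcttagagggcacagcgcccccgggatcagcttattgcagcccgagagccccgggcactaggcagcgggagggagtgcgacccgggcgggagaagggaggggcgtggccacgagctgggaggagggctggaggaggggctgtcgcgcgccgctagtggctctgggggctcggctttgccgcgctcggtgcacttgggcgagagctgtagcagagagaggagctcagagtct
Wfdc18: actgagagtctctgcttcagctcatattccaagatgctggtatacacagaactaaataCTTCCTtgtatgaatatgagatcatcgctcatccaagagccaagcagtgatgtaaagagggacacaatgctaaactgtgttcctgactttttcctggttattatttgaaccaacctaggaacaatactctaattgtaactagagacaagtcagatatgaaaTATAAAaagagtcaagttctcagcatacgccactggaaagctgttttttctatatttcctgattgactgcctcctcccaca
Lcn2: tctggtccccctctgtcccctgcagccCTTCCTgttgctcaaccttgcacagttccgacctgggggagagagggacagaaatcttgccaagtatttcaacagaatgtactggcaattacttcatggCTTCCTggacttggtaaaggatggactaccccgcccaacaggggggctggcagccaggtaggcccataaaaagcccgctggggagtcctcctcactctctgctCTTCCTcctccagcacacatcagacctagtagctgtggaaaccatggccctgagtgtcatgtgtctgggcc

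AGGAAG was found in windows of 4 of the 7 genes, at -222 to -217 from the start in the Kit window printed, at -192 to -187 in Wfdc18, at 3 places in Lcn2 and at -25 to -20 in Basp1. Of all 32851 promoter windows 35.4% hold it. TATAAA was found at -31 to -26 in Wfdc18 and at -30 to -25 in Plet1, and 13.6% of all windows hold it. Neither Elf5 window matched either motif. The STAT-type motif TTCNNNGAA was in none of the 9 windows and in 8.3% of all windows, and the kappaB motif was in the Basp1 window alone, at 2 overlapping places, and in 8.46% of all windows. A match describes letters in this window and not a bound site, and AGGAAG occurs both in Kit and Wfdc18, higher in mixed than in luminal aggregates, and in Lcn2, which was lower.

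Other genes of the progenitor and alveolar lineage were divided. Of 12 such genes, 7 rose and 1 fell for luminal minus basal (median log2 difference 0.99), 5 rose and 1 fell for mixed minus basal (median 0.82), and 1 rose and 4 fell for mixed minus luminal (median -0.58). With the code series as a term 1 rose and 0 fell for mixed minus luminal, and the gene was Aldh1a3 in place of Sox9. Aldh1a3, an enzyme of retinoic acid synthesis, averaged 964 ± 174 CPM in the mixed libraries, against 219.8 ± 82.3 CPM in the basal ones (SD, n = 3 each), a log2 difference of 2.13 ± 0.29 (adjusted p = 0.000862). Mixed minus luminal of Aldh1a3 was 0.53 ± 0.28 (adjusted p = 0.175), and it passed without basal 2 (0.52, adjusted p = 0.0379) and with the code series as a term (1.88, adjusted p = 0.0253). Itgb3, the integrin chain CD61, differed by 2.32 ± 0.22 for luminal minus basal and by -1.20 ± 0.21 for mixed minus luminal. The call for mixed minus luminal ended with the code series as a term (-1.39, adjusted p = 0.101). Ltf, the secreted iron binder lactoferrin, stood at 103 to 164 CPM in mixed, 358 to 1797 CPM in luminal and 6.83 to 47.2 CPM in basal libraries. Its luminal minus basal difference was 5.27 ± 0.73 (3.14 within series B), and its mixed minus luminal difference of -3.17 ± 0.66 turned to 1.07 with the code series as a term. Csn3, the milk protein kappa-casein, went against the list, with -1.65 ± 0.25 for luminal minus basal and -2.52 ± 0.26 for mixed minus basal.

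Partners and relatives of the markers numbered 21, of which 15 rose and 3 fell for luminal minus basal (median 1.503). For mixed minus basal the counts were 9 and 2 (median 0.87), and for mixed minus luminal 2 and 6 (median -0.64). With the code series as a term none of these genes was called between mixed and luminal aggregates. Prlr, the prolactin receptor, averaged 597 ± 46.7 CPM in the mixed libraries, against 71.8 ± 12.98 CPM in the basal ones (SD, n = 3 each), a log2 difference of 3.06 ± 0.23. Tlr4, the signalling partner of Cd14 and named after its values were seen, stood at 20.8 to 25.5 CPM in mixed, 28.3 to 50.1 CPM in luminal and 6.84 to 10.3 CPM in basal libraries. Its mixed minus luminal difference was -0.73 ± 0.26 (adjusted p = 0.051), and Tlr4 passed without basal 2 (-0.74, adjusted p = 0.0391), without basal 1 (-0.76, adjusted p = 0.0389) and without luminal 2 (-0.93, adjusted p = 0.0254). Slpi, a secreted protease inhibitor related to Wfdc18, ran the other way, with -2.13 ± 0.40 for luminal minus basal, and basal 2 held 4804 CPM, while basal 1 and 3 held 1464 and 2122 CPM. The value for Slpi, luminal minus basal, was -1.49 without basal 2 (adjusted p = 0.00161). Slc19a1, the reduced folate carrier, differed by -2.12 ± 0.22 for luminal minus basal, opposite to Folr1. The folate genes Slc46a1 (1.42 ± 0.28, adjusted p = 0.00241) and Folr2 (3.78 ± 1.19, adjusted p = 0.0346) went with Folr1. Folr2 averaged only 1.08 CPM in luminal and 0.0721 CPM in basal libraries, and did not pass without basal 2 (3.24, adjusted p = 0.081).

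**Figure D4:**
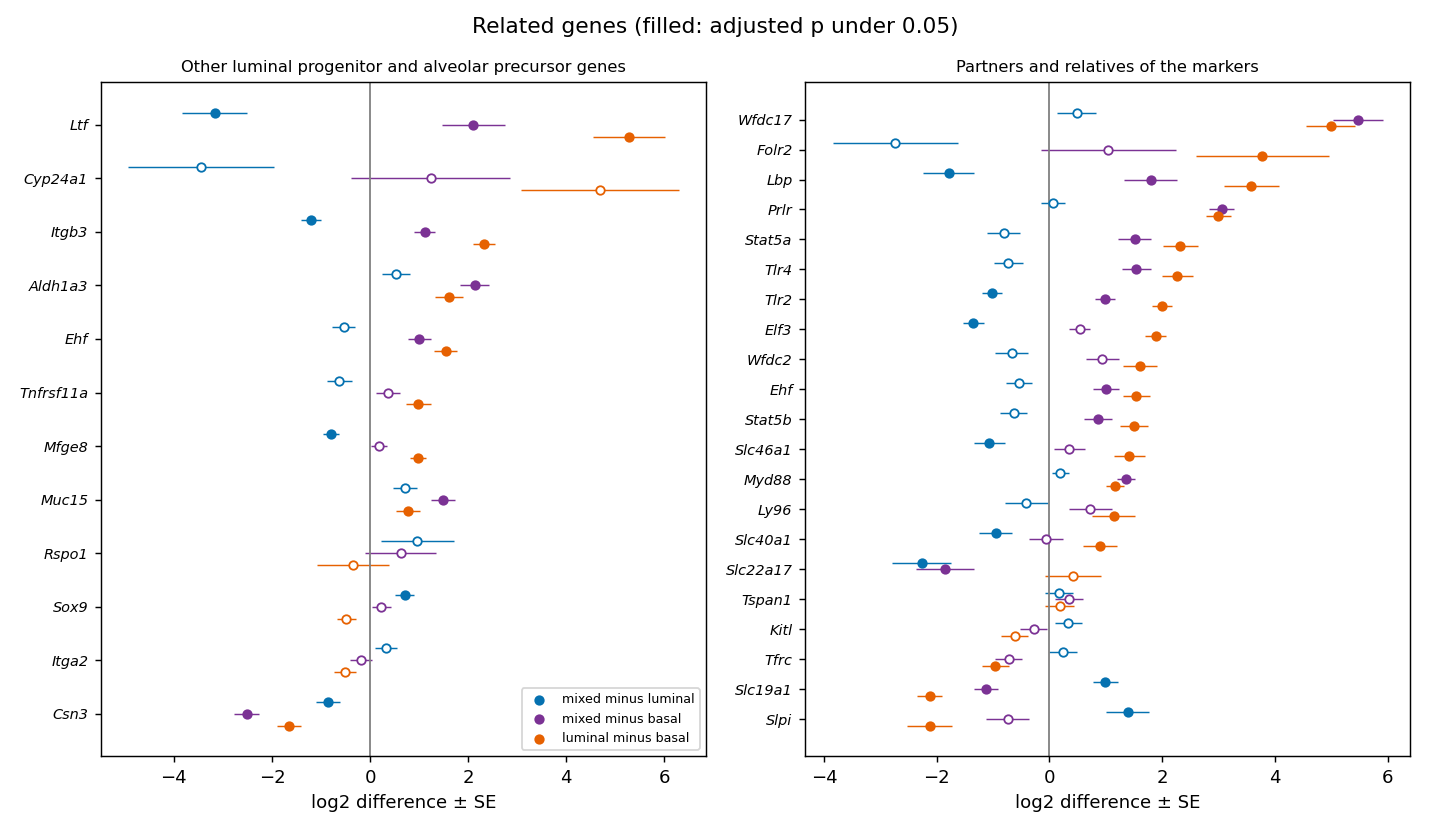
Log2 differences with their SE for 12 other luminal progenitor and alveolar precursor genes (left) and 21 partners and relatives of the markers (right), ordered by luminal minus basal (3 libraries per group, filled points passed an adjusted p of 0.05). For luminal minus basal, 7 of 12 and 15 of 21 genes were called to the right of 0, while Csn3, Slpi and Slc19a1 lie to the left.

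The genes most like Elf5 over the 9 libraries, of the 10618 whose mean reached 10 CPM, were Ntn1, Smagp and Ctsh. Their root mean square distances from Elf5 were 0.14, 0.27 and 0.28 in log2 CPM centred on each gene's mean. Ntn1 stood at 134 CPM in mixed, 121 CPM in luminal and 21.7 CPM in basal aggregates. For Kit the nearest were Rasef, Prlr and Ckmt1, at 0.48, 0.52 and 0.52, and each of them had a smaller excess of mixed over luminal aggregates than Kit in mean CPM (51.3 and 48.6, 597 and 572, 118 and 96.5). Among the markers, Folr1 and Lcn2 were nearest to each other (0.22), as were Elf5 and Plet1 (0.27). Cd14 was farthest from any other marker, with Plet1 at 1.14.

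Markers of other cell types were measured beside these genes. The 10 macrophage and monocyte markers summed to 46.4 to 68.6 CPM in mixed, 22.4 to 54.0 CPM in luminal and 4.20 to 49.9 CPM in basal libraries, and 0, 1 and 0 of them had no count in the group. Ptprc, the pan-leukocyte marker CD45, was at 0.744 CPM or less in all libraries. Cd68, a lysosomal protein, was highest in luminal libraries like Cd14, at 3.81 to 7.35 CPM in mixed, 20.9 to 50.2 CPM in luminal and 2.33 to 3.91 CPM in basal libraries. Unlike Cd14, its mixed and basal libraries overlapped, and Cd68 was not called for mixed minus basal (0.87 ± 0.39, adjusted p = 0.165). It was called for luminal minus basal (3.37 ± 0.41, adjusted p = 9.5e-05) and mixed minus luminal (-2.49 ± 0.40, adjusted p = 0.0012). Lyz2 and Cd74 were called higher in mixed than in luminal libraries, with Cd74 at 26.3 to 36.4 CPM in mixed and 0.0622 to 1.19 CPM in luminal libraries, and at 27.3 CPM in basal 2 against at most 1.88 CPM in basal 1 and 3. Both were called lower for luminal minus basal (Lyz2 -6.31, adjusted p = 0.0269, Cd74 -3.69, adjusted p = 0.0373). These calls ended without basal 2 (Lyz2 -1.11, adjusted p = 0.592, Cd74 -0.73, adjusted p = 0.54). With the code series as a term none of Cd68, Lyz2 and Cd74 passed for mixed minus luminal (adjusted p = 0.136, 0.564 and 0.961), and their part in the result on Cd14 was not tested. The 8 neutrophil markers summed to 15.8 to 33.8, 17.1 to 29.3 and 0.457 to 9.04 CPM in the same groups, with Mpo at 0.0622 CPM or less. S100a8 is also made by some epithelial cells. It stood at 12.6 to 25.9 CPM in mixed, 17.0 to 29.3 CPM in luminal and 0.457 to 3.69 CPM in basal libraries. S100a8 carried most of these sums except in basal 2, where it held 3.69 of 9.04 CPM. S100a9, the other neutrophil marker tested, was not called in any comparison. Its luminal minus basal difference was -3.72 ± 1.86 (adjusted p = 0.171). S100a9 stood at 2.34 to 5.56 CPM in mixed, 0 to 0.249 CPM in luminal, 3.42 CPM in basal 2 and 0 CPM in basal 1 and 3. Like Lcn2, S100a8 was called for mixed minus basal (3.62 ± 0.69, adjusted p = 0.0067) and luminal minus basal (3.78 ± 0.70, adjusted p = 0.00175), and its part in the result on Lcn2 was not tested. The 8 mast cell markers summed to 0 to 0.431, 0 to 0.560 and 0.203 to 0.716 CPM, and Cpa3 and Fcer1a were at 0 counts in all 9 libraries. Cd14 alone stood at 459 CPM or more in mixed and 837 CPM or more in luminal libraries. The 18 cell cycle genes summed to 2174 to 2570 CPM in mixed, 199 to 231 CPM in luminal and 2670 to 3678 CPM in basal libraries, a difference that runs beside the excess of Kit and Wfdc18 in mixed over luminal aggregates, and its part in that excess was not tested.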

How the data were processed

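RNA of 9 libraries was analysed from the table of raw counts deposited by the authors, whole numbers per gene name in 1 column per library, together with exon length in bases. Per the submitters' processing notes and the file headers, reads went through Trim Galore and Subread against mm39, and featureCounts 2.0.1 counted read pairs over exons per gene name, without strand and without reads of several alignments. The kit for the libraries was stranded, per the labels' protocols. The annotation release is not given in the sources used here. The labels name no molecular identifiers.

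In R 4.3.3, genes passing filterByExpr (18051) were scaled by TMM and fitted over all 9 libraries by group with edgeR 4.0.16 (robust quasi-likelihood, two-sided, 6 residual degrees of freedom), with Benjamini-Hochberg adjustment over all tested genes and a threshold of 0.05. The SE is the size of the log2 difference divided by the square root of the test's F. CPM carry no pseudocount, and the prior count behind log2 CPM, used for likeness, was 2. Columns follow the sample descriptions, and library numbers follow the titles. No pair of libraries within a group was a duplicate. Markers and lists were chosen with earlier results of these data known. Named genes are all markers, up to 2 called genes at each end of a list per comparison, and defining markers of other cell types at or near 0. The keratins beside the label check, Wfdc17 as a neighbour, Slc46a1 as a folate gene and S100a9 as the other neutrophil marker tested are named too. So are those said to be named after their values were seen. Alternatives used limma 3.58.1, DESeq2 1.42.0, other scalings and filters, a 1.5-fold threshold, the replicate block, the code series and libraries left out.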

Additional observations from a re-analysis of the deposited data

How the results depend on the processing

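The 9 calls of luminal minus basal were made in every alternative run, and Trf joined them with DESeq2, without the filter, with a minimum mean of 1 CPM and without luminal 1. For mixed minus basal the number of called markers was 8 to 9 with a library left out and 7 with the code series as a term, and for mixed minus luminal it was 4 to 7 with a library left out, 3 with the code series as a term and 0 in the test against a 1.5-fold change. For markers outside both pure groups it was 0 to 2 with a library left out, 1 without basal 2 and mixed 3 together, 2 with DESeq2 and 2 without the filter on low counts.

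Counts over all genes moved more. For luminal minus basal (4899) they were 2885 against a 1.5-fold change and 2507 with the code series, and 3678 to 5393 with 1 library left out. For mixed minus basal (2477) they were 4004 with DESeq2, 3903 without the filter, 898 against a 1.5-fold change, 853 with the code series, 5129 without basal 2 and mixed 3, and 963 to 5120 with 1 library left out. For mixed minus luminal (5309) they were 2243 against a 1.5-fold change, 491 with the code series and 2967 to 6774 with 1 library left out. For genes outside both groups (16) they were 622 with DESeq2, 33 with limma-voom, 890 without the filter, 0 with the code series, 886 without basal 2 and mixed 3, and 1 to 1251 with 1 library left out. The cause of these shifts was not tested.

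Same-numbered libraries correlated at -0.166 to 0.201 after centring by group, so the numbers gave no pairing. The replicate block changed no marker call and left 9 genes outside both groups in place of 16.

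Among the markers, the sign of Trf turned most often. The value for Trf, mixed minus basal, was -0.0241 with DESeq2 size factors and with DESeq2, -0.16 with library size scaling, -0.013 without the filter, -0.10 without basal 2 and mixed 3, and -0.0856 to 0.0573 with 1 library left out. Among the markers and the genes tested under each alternative, the code series as a term turned the signs of Trf (-0.10 for luminal minus basal, 0.28 for mixed minus luminal), Elf5 (-0.29), Sox9 (-0.00919), Ltf (1.07), Slpi (-0.0176) and Kitl (-0.62) in mixed minus luminal. Over the 32 genes of the progenitor and partner lists it turned 12 signs in mixed minus luminal, 3 of them called without the term and 0 with it, and Wfdc17 was among them (0.48 and -1.18). With 1 library left out, Prlr ran from -0.118 (without luminal 1) to 0.214 in mixed minus luminal, and Kitl from -0.43 to 0.0288 (without basal 2) in mixed minus basal. The median position of the mixed libraries stayed between 9.75% on the log2 scale and 31.1% over all 10 markers. At this depth all 10 markers stood far above the limit of 3 counts.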

Other observations

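A list of hormone-sensing genes, for the other luminal lineage, had a lower median position of the mixed libraries than the pan-luminal list. Prlr belongs to this list and also to the partners of the markers. Of 10 hormone-sensing genes tested, 7 rose and 0 fell for mixed minus basal, 6 rose and 1 fell for luminal minus basal, and 1 rose and 0 fell for mixed minus luminal. Cited1 was the gene that fell for luminal minus basal (-2.15 ± 0.41) and the gene that rose for mixed minus luminal (2.58 ± 0.42). The median position was -1.28% ± 16.2 between the luminal mean (0%) and the basal mean (100%) over 6 hormone-sensing genes, Cited1 among them. It was 59.2% ± 3.77 for 10 of the 16 pan-luminal markers, and neither was tested against the other. Of 8 milk protein and fat genes tested, 3 rose and 1 fell for mixed minus basal, 5 rose and 2 fell for luminal minus basal, and 1 rose and 4 fell for mixed minus luminal. With the code series as a term 0 of these milk genes rose and 1 fell for mixed minus luminal.

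The 8 fibroblast markers summed to 48.8 to 71.2 CPM in mixed, 6.77 to 11.01 CPM in luminal and 119.7 to 153 CPM in basal libraries. In basal libraries most of that was Fbln1, at 90.5 to 131 CPM, and each other marker of the list was at 7.41 CPM or less. Fbln1 stood at 29.2 to 33.1 CPM in mixed and 0.237 to 1.18 CPM in luminal libraries. The 6 endothelial markers summed to 3.20 to 8.33 CPM in mixed, 0.712 to 3.80 CPM in luminal and 0.827 to 4.11 CPM in basal libraries. The 6 adipocyte markers summed to 74.8 to 108 CPM in mixed, 42.5 to 88.1 CPM in luminal and 28.4 to 56.4 CPM in basal libraries. Nearly all of that was Adipor2, an adiponectin receptor found in many tissues (mixed minus basal 1.12 ± 0.30, adjusted p = 0.03, and 0.71, adjusted p = 0.426, with the code series as a term). Adipoq, Plin1, Lep and Retn had no count in the mixed libraries, and Cidec had 0.687 CPM in mixed 1.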
